A study of Rattus norvegicus with 56 samples.

Results

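Marker genes of neurogenesis and cell proliferation were followed in the hippocampus and parietal cortex of male Long-Evans rats. The set held 9 symbols, namely Dcx, Sox11, Sox4, Neurod1, Eomes, Mki67, Top2a, Nes and Igfbpl1, and an array probe was counted as a member when its transcript identifier led to one of them through RefSeq names. Of the 9 genes, 7 had a probe, and these 7 genes were read by 12 of the 45598 probes on the array. No probe was matched to Eomes, a transcription factor of intermediate progenitors, or to Top2a, a topoisomerase of dividing cells. Age was 6 to 7 months in young rats (Y) and 26 to 27 months in aged rats, which the water maze had sorted into unimpaired (AU) and impaired (AI) animals. Each rat received intermittent theta burst stimulation (iTBS), a patterned magnetic stimulation of the brain through a coil above the skull, or a sham procedure with the coil kept away. All animals, sham included, were lightly anesthetized with isoflurane, sedated with dexmedetomidine and given Antisedan to reverse it, and tissue was taken 48 h later. By those methods, aged rats received a lower dose of dexmedetomidine and of Antisedan per body weight than young rats, so dose went with age. Both regions were measured in every animal, with 4 animals in each sham group (Y_Sham, AU_Sham, AI_Sham) and in Y_iTBS, 5 in AU_iTBS and 3 in AI_iTBS. Per the study's methods the hippocampal sample was dorsal and both samples lay under the coil, and those methods name fewer aged animals than the labels do.

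In the adult rodent brain, neural stem cells of the dentate gyrus, a field of the hippocampus, divide and give rise to progenitors, neuroblasts and then granule neurons. Nes (nestin) is an intermediate filament of stem cells that is also found in blood vessels. Mki67 encodes Ki-67, a nuclear protein of dividing cells of any type. Neurod1 is a basic helix-loop-helix factor that drives neuronal differentiation and binds the E-box, a short DNA motif. Sox4 and Sox11 are related transcription factors of immature neurons, and Dcx (doublecortin) is a microtubule-associated protein widely used to stain neuroblasts. Igfbpl1 (insulin-like growth factor binding protein-like 1) is a secreted protein seen in newly born neurons. Neurogenesis in the dentate gyrus is known to decline steeply with age, while the neocortex makes few or no new neurons in adult life.

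The 3 members with the widest gaps between the regions were Igfbpl1, Dcx and Neurod1, and the 250 bases before their transcription starts are shown here, 5′ to 3′ in the direction of the gene, with E-boxes (CANNTG, N being any base; the motif reads the same on both strands) in capitals. The sequences are from RefSeq on the rat assembly GRCr8. They lie on the minus strand at chr3:84770455-84770704 for Neurod1, at chr5:64887462-64887711 for Igfbpl1 and at chrX:112304162-112304411 for Dcx.
Neurod1: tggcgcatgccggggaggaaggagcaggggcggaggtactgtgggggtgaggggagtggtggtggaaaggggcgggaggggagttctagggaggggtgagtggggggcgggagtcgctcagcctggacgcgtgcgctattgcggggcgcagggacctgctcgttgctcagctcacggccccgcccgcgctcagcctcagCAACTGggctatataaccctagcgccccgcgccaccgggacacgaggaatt
Igfbpl1: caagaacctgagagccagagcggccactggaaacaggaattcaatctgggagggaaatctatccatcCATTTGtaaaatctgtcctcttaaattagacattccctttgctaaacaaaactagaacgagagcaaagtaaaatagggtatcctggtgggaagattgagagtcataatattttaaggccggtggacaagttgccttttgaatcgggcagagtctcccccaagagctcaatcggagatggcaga
Dcx: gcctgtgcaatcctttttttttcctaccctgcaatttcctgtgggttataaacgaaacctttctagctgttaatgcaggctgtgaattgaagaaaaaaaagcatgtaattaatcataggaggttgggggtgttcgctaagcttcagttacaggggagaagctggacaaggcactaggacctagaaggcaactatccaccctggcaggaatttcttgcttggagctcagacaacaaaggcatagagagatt
Neurod1 held 1 E-box, whose first base was at position -51 from the start, and Igfbpl1 held 1 at -183. Dcx held 0. An E-box was found in 65.5% of the 33469 rat promoter windows of this length, so its presence is common. The Neurod1 window had 69.2% G and C, against 44.4% for Igfbpl1, 44% for Dcx and a median of 51.2% over all windows. Among the other members, Sox11 held 2 E-boxes, Mki67 1, Top2a 3, and Nes and Eomes 0, while Sox4 had no entry. The Mki67 window held 4 CCAAT boxes (CCAAT on either strand, in 34.0% of windows) and 2 copies of TTTGAA, the cell cycle homology element (either strand, in 16.2% of windows). TTTGAA was also found once in each of the Sox11, Igfbpl1 and Top2a windows, and the CCAAT box once in Sox11, 2 times in Eomes and 4 times in Top2a. A SOX motif spelled AACAAT, searched on both strands and present in 10.3% of all windows, was in 0 of the members' windows.

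Levels are given as normalized log2 signal, on which 0 is the mean of all probes of an array, and they may be compared between samples for a probe but not between probes. On the 56 arrays, 59.3% to 69.7% of probes (median 65.1%) passed the scanner's mark for a signal well above background. Both regions of 15 animals were scanned in the first scan batch and both regions of the other 9 on later days, and each batch held all 6 groups. Another 6 arrays, technical repeats from 3 animals (Y_Sham 3, AI_iTBS 2 and AU_iTBS 4), entered as a mean with that tissue's first array. A cortex repeat of AI_iTBS 2 went against its label, since over the 500 most variable probes its r was 0.179 with that animal and 0.735 with AI_Sham 2, and it was left out. The regions mostly carried their labels' markers. Of 7 cortex genes, 6 were called higher in cortex (log2 differences of hippocampus minus cortex of -0.97 for Rorb, -1.88 for Lamp5, -1.47 for Tbr1 and -0.85 for Cux2). Of 6 genes of the CA fields, 5 were called higher in hippocampus (4.29 for Fibcd1), while Spink8 was called higher in cortex (-0.40).

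Most member probes were well above background in every sample. Dcx (A_42_P645427, NM_053379), Neurod1 (A_44_P226575, NM_019218), Nes (A_44_P1082249, NM_012987), Sox4 probe a (A_64_P050650, NM_001271205), Sox4 probe b (A_44_P1159565) and Mki67 probes a, b and c (A_42_P576823, A_44_P1162955 and A_44_P1112631, NM_001271366) reached that mark in 24 of 24 hippocampi and 24 of 24 cortices. The dimmer probes were Sox11 (A_64_P073944, NM_053349) with 17 hippocampi and 19 cortices, Sox4 probe c (A_44_P1071095) with 24 and 22, and Igfbpl1 (A_43_P23118, NM_001108972) with 24 and 13. Mki67 probe d (A_44_P510940) reached it in 2 hippocampi and 0 cortices, fell under the minimum of 3 animals and was not tested. Thus 11 of the 12 probes were tested in each comparison. Sorted by mean, neighboring groups within a region seldom lay farther apart than their spread. Such a gap exceeded the larger of the 2 groups' SDs for 2 of the 11 tested probes, each in 1 region: between AI_iTBS (4.33 ± 0.18, SD, n = 3) and Y_iTBS (4.56 ± 0.16, SD, n = 4) for Sox4 probe a in cortex, and between Y_iTBS and Y_Sham, 0.25 apart, for Sox4 probe b in hippocampus.

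**Figure D1:**
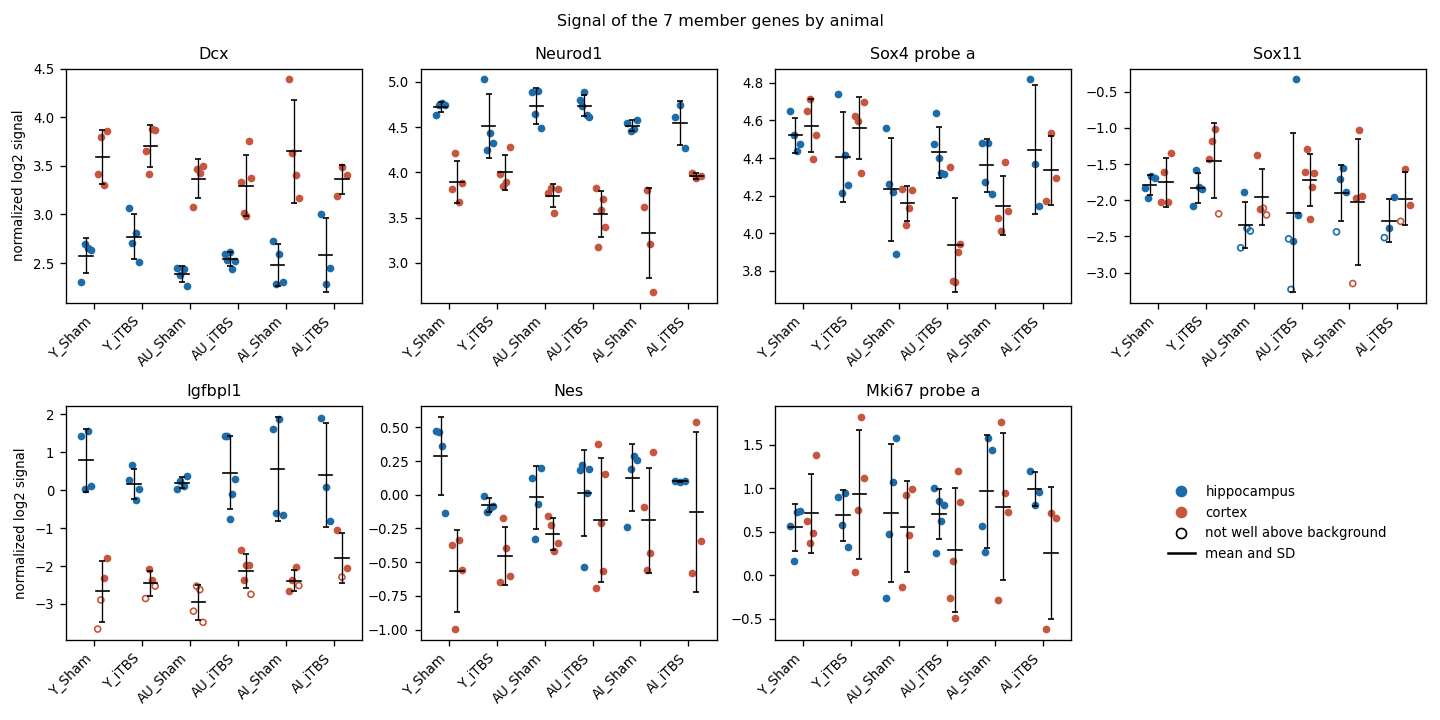
Normalized log2 signal (y axis) in the 6 groups (x axis) of hippocampus and cortex for 1 probe of each of the 7 genes (probe a for Sox4 and Mki67), with points for animals (open where not well above background) and black bars for group means and SD. Dcx lay higher in cortex, with 3.49 against 2.55, Neurod1 and Igfbpl1 lay higher in hippocampus.

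The first comparison set the hippocampus, which holds the dentate gyrus, against the cortex of the same animals. Igfbpl1, Neurod1 and Nes were higher in hippocampus and Dcx was higher in cortex. These were the 4 of 11 tested probes called at an adjusted p under 0.05 by limma, where 49.4% of all 33770 tested probes were called (26.3% higher in hippocampus and 23.2% in cortex), so differing between the regions is not particular to the members. The median difference of the 11 probes was 0.26, beside 0.02 over all tested probes. In bulk tissue, a change in the number of cells of a type and a change in RNA per cell cannot be told apart.

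Igfbpl1 ran from -0.80 to 1.91 with a median of 0.18 in the 24 hippocampi, and from -3.66 to -1.04 with a median of -2.37 in the cortices. The 2 regions did not overlap. Hippocampus exceeded cortex by 2.83 (SE 0.196, 95% interval 2.42 to 3.24, adjusted p = 1.18e-10, limma), and by 1.47 after normexp background correction and quantile normalization. As the probe was well above background in 13 of 24 cortices, no fold is given over all animals. Igfbpl1 was higher in 24 of 24 animals, with differences of 1.20 to 5.09. In AU_Sham, none of whose 4 cortices was well above background, the hippocampal signal was 7.49-fold above a floor set for cortex. That floor was the higher of the probe's own signal and the lowest signal well above background on each array. The fold was taken in the main processing only. The mean difference was 2.57 in the first scan batch and 3.29 in the later scans.

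Dcx ran from 2.27 to 3.07 in hippocampus (median 2.53) and from 2.99 to 4.39 in cortex (median 3.43). Its ranges met only at their ends, and cortex was higher in 24 of 24 animals. Hippocampus minus cortex was -0.94 (SE 0.0755, 95% interval -1.10 to -0.78, adjusted p = 1.23e-09, limma), a signal 1.92-fold higher in cortex. By group the mean difference lay between -1.17 in AI_Sham and -0.75 in AU_iTBS. Within the scan batches it was -1.05 and -0.76.

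Neurod1 had the opposite order. Its signal was 4.25 to 5.03 in hippocampus (median 4.63) and 2.68 to 4.28 in cortex (median 3.81), with a difference of 0.88 (SE 0.0732, 95% interval 0.73 to 1.03, adjusted p = 2.15e-09, limma). Every one of the 24 animals had more Neurod1 signal in hippocampus, by 0.04 to 1.91. Nes differed less, with a range of -0.54 to 0.47 in hippocampus and -0.997 to 0.54 in cortex, and a difference of 0.37 (SE 0.0892, adjusted p = 0.00151, limma). Nes was higher in hippocampus in 18 of 24 animals, and with the array slide as a random block its adjusted p was 0.0552.

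The remaining 7 tested probes were not called between the regions. Sox4 probe a differed by 0.11 (95% interval -0.01 to 0.24), probe b by 0.11 (-0.10 to 0.32) and probe c by 0.26 (0.00 to 0.52, adjusted p = 0.0852), and the first and later scans gave 0.47 and -0.13 for probe c. Mki67 probes a, b and c differed by 0.18 (-0.15 to 0.51), 0.27 (-0.02 to 0.56) and 0.28 (-0.06 to 0.61). The first and later scans gave -0.13 and 0.65 for Mki67 probe a, 0.21 and 0.31 for probe b and 0.31 and 0.12 for probe c. In cortex, the mean of Mki67 probe a was 0.99 (SD 0.41) in the first and -0.07 (SD 0.40) in the later scans. Sox11 differed by -0.24 (-0.54 to 0.07). The intervals were thus narrowest for Sox4 probe a and widest for Mki67 probe c among the probes of these 2 genes.

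**Figure D2:**
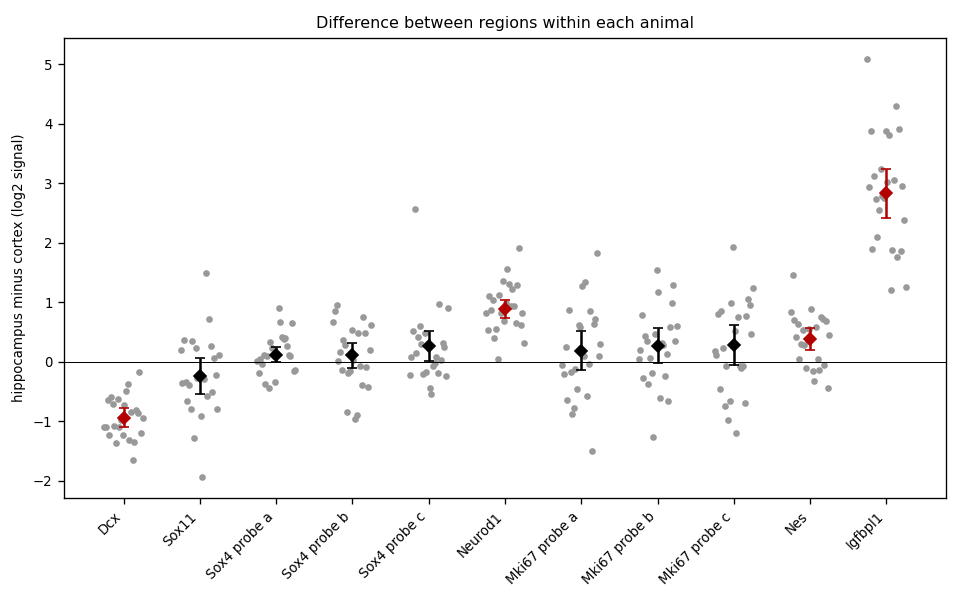
Difference between the regions (hippocampus minus cortex, normalized log2 signal, y axis) for each tested member probe (x axis), with gray points for the 24 animals and a diamond for the fitted mean with its 95% interval, red where called. All animals lie above 0 for Igfbpl1 and Neurod1 and below 0 for Dcx.

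Lists of related genes gave the setting for these members. The neuroblast and immature neuron list split evenly, with 6 of its 14 tested genes called toward hippocampus and 6 toward cortex. Nhlh1 (4.84) and Bhlhe22 (1.37), both basic helix-loop-helix factors like Neurod1, were higher in hippocampus, while Gap43 (-0.91), a growth cone protein, and Elavl4 (-0.94), a neuronal RNA-binding protein, shared the direction of Dcx. Of 15 stem cell and progenitor genes, 7 were higher in hippocampus and 1 in cortex, with Fabp7 at 1.10, Lpar1 at 0.74, Emx2 at 0.68 and Hopx at -0.88, although the other Hopx probe was not called. Of 35 cell cycle genes, 17 were higher in hippocampus and 8 in cortex, and the largest values had opposite signs, with Aurkb at 2.70 (well above background in 11 cortices) and Tpx2 at -2.10. Hmmr, called toward cortex, was well above background in 0 hippocampi and 4 cortices. The list medians were -0.09, 0.24 and 0.16, beside 0.02 for all probes. The shares called, 12 of 14, 8 of 15 and 25 of 35, are to be read against the 49.4% of all probes.

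Lists for other cell types also held genes called between the regions, and their shares are to be read against the 49.4% of all probes. Oligodendrocyte precursor genes, of cells that divide in the adult brain, were higher in hippocampus for 9 of 11 (Neu4, 0.60) and lower for 0, and microglia genes for 5 of 8 and 0. Endothelial genes were higher in cortex for 6 of 9 and in hippocampus for 0, and 2 mural cell genes were higher in hippocampus and 4 in cortex of 8. Astrocyte genes were higher in hippocampus for 4 of 8, led by Gfap (1.42), and in cortex for 1. Choroid plexus genes were higher in hippocampus for 5 of 7, led by Otx2 (2.93), and ependymal genes for 3 of 3, with 0 higher in cortex in either list. Among the called choroid plexus genes, Clic6 was well above background in 14 hippocampi and 1 cortex, and Kl in 7 and 1. For mature dentate granule cells, 3 of 7 were higher in hippocampus, led by C1ql2 (4.60), and 1 in cortex. Tdo2, 1 of those 3, was well above background in 4 hippocampi and 1 cortex. The part of these cells in the members' differences was not tested.

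Igfbpl1 varied in hippocampus beyond any group, and its values fell into 2 sets. In 7 animals it was 1.43 to 1.91, and in the other 17 it was -0.80 to 0.65, with no value between. The 7 animals were Y_Sham 1 and 3, AU_iTBS 1 and 2, AI_Sham 1 and 3 and AI_iTBS 1, from 4 groups, and 5 of them were scanned on the later days against 4 of the 17. Several other transcripts were high on the same arrays. Calb2 (calretinin, of immature granule neurons, mossy cells and interneurons) was 5.83 to 6.57 in the 7 animals and 3.85 to 5.33 in the 17. Otx2, a homeobox factor of the choroid plexus, was 2.11 to 3.32 against -0.89 to 1.49, and Folr1, a folate receptor of the same epithelium, 2.47 to 3.98 against 0.69 to 2.19. The sets overlapped for Ttr (7.15 to 11.1 against 4.78 to 8.21), the main secreted protein of the choroid plexus, for the ependymal genes Foxj1 (3.02 to 3.63 against 2.06 to 3.08) and Tmem212, and for Dcx, Neurod1, Prox1 and C1ql2. As the log2 of the summed signal, the 7 choroid plexus genes lay at 7.09 to 9.03 in Y_Sham, 5.15 to 7.16 in Y_iTBS, 5.43 to 7.83 in AU_Sham, 5.34 to 11.1 in AU_iTBS, 7.25 to 10.7 in AI_Sham and 6.43 to 9.17 in AI_iTBS hippocampi. The highest of these sums were mostly Ttr, which alone read 11.1 in AU_iTBS 2, 10.7 in AI_Sham 1 and 8.97 in Y_Sham 1. The sum is thus not an even measure of the 7 genes. The part of tissue from other structures in Igfbpl1 was not tested.

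Because the animals formed separate sets, no correlation was taken over all 24. Within the 17 animals of the lower set, Igfbpl1 varied with Calb2 (Pearson's r = 0.803, Spearman's rho = 0.816) and less with Pdgfra, a receptor of oligodendrocyte precursors (r = 0.612, rho = 0.596). For Otx2 (r = 0.331, rho = 0.488), Foxj1 (r = 0.396, rho = 0.407), Tmem212 (r = 0.505, rho = 0.561), Folr1 (r = 0.116, rho = 0.439) and Ttr (r = -0.067, rho = 0.022) both values were lower than for Pdgfra. These genes were picked after the values had been seen, and all points share 1 array per animal. The lower set was itself cut by the Igfbpl1 values and mixes groups, ages and scan batches. The values are therefore a description, and no p is given.

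**Figure D3:**
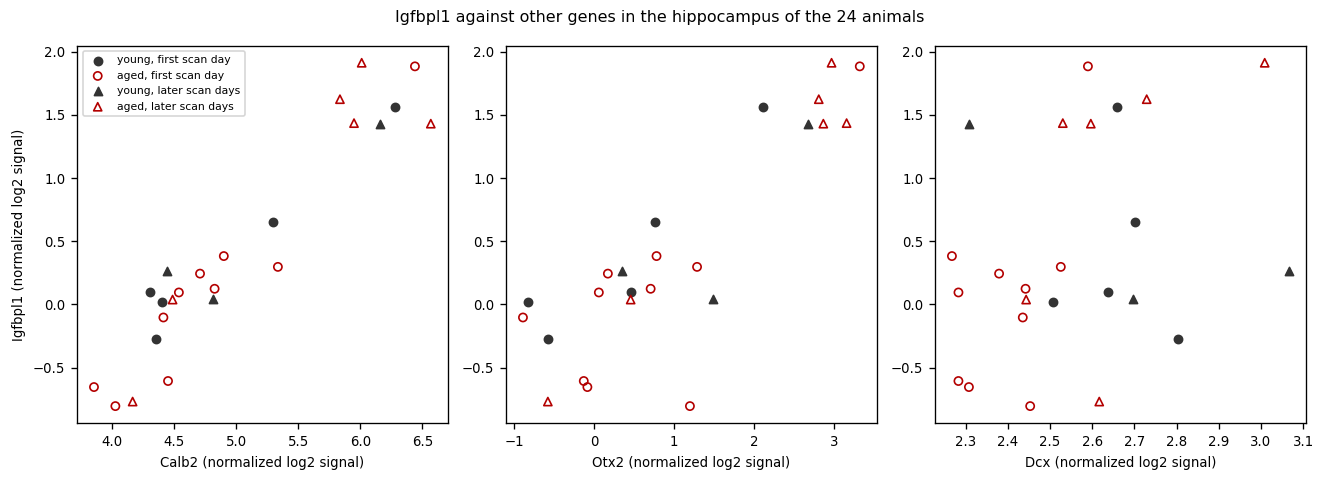
Hippocampal Igfbpl1 (y axis, normalized log2 signal) against Calb2, Otx2 and Dcx on the same arrays (x axis, normalized log2 signal), with 1 point per animal, filled for young and open for aged animals, and circles and triangles for the first and later scan days. The 7 animals with Igfbpl1 of 1.43 or more also had the highest Calb2 and Otx2, while Dcx overlapped with the other 17.

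The second comparison set 16 aged against 8 young animals, stimulated and sham together. In hippocampus 0 of 11 member probes were called by limma, where 0.511% of 32503 probes were, and 1 of the 11 had an unadjusted p under 0.05. In cortex 1 of 11 was called, where 0.402% of 32613 probes were (0.166% lower in aged). That probe was Sox4 probe a, lower in aged cortex. The members' median difference was -0.07 in hippocampus and -0.16 in cortex, beside -0.01 for all probes of either region.

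Dcx in hippocampus was 2.31 to 3.07 in young animals (median 2.68) and 2.27 to 3.01 in aged animals (median 2.45). Of the 16 aged animals, 4 lay below the lowest young one, Y_Sham 1. That animal, at 2.31, lay apart from the other Y_Sham animals (2.64 to 2.70). The next lowest young value was 2.51 in Y_iTBS 4, which was above the aged median. The difference of aged minus young was -0.18 (95% interval -0.36 to 0.01, adjusted p = 0.396, limma), and it was -0.26 in the first scan batch and -0.04 in the later scans. In cortex the Dcx difference was -0.23 (-0.51 to 0.05). Neurod1 differed by 0.02 in hippocampus (-0.16 to 0.20) and by -0.31 in cortex (-0.56 to -0.06, adjusted p = 0.279, limma), with 7 of 16 aged cortices below the lowest young one.

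Sox4 probe a in cortex was 4.32 to 4.71 in the 8 young animals (median 4.61) and 3.74 to 4.53 in the 16 aged animals (median 4.12). Of the aged animals, 13 lay below the lowest young one, Y_iTBS 3, and the exceptions were AU_iTBS 1 (4.35), AI_Sham 3 (4.38) and AI_iTBS 2 (4.53). The difference was -0.42 (SE 0.0856, 95% interval -0.60 to -0.24, adjusted p = 0.0297, limma). It was -0.35 and -0.61 within the scan batches and -0.46 and -0.45 within the slides that held both ages. The call was lost with the slide as a fixed block (-0.47, adjusted p = 0.0735), with the replicate number as a block (-0.42, adjusted p = 0.0762), in sham animals alone (-0.42, adjusted p = 0.289) and without any 1 of 9 animals, namely Y_Sham 1, 2 or 4, Y_iTBS 1, 2 or 4, AU_Sham 3, or AI_iTBS 1 or 3, while the difference stayed between -0.46 and -0.40.

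The other Sox4 probes did not share this difference. In cortex, probe b differed by 0.07 (-0.25 to 0.39) and probe c by 0.32 (-0.25 to 0.89). In hippocampus the order of the probes changed, with probe b at -0.35 (-0.60 to -0.10, adjusted p = 0.237, limma), probe a at -0.10 and probe c at -0.11. Across the 24 animals the Sox4 probes were not correlated with each other in either region (r of -0.349 to 0.216, adjusted permutation p of 0.164 or more over 12 probe pairs of Sox4 and Mki67). By contrast, Mki67 probes a, b and c were correlated, hippocampal r being 0.782, 0.835 and 0.788 and cortical r 0.607, 0.715 and 0.747 (rho 0.565 to 0.812, adjusted permutation p of 0.0035 or less for r). These pairs were examined after the values had been seen. Without the 2 animals farthest from the median, r for Mki67 was 0.748, 0.782 and 0.841 in hippocampus and 0.571, 0.668 and 0.788 in cortex.

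Mki67 in hippocampus differed little in its mean with age, by 0.22 for probe a (-0.19 to 0.64), 0.02 for probe b (-0.32 to 0.37) and 0.18 for probe c (-0.32 to 0.69). Its spread was wider in aged animals. Probe c was -1.57 to -1.16 in young animals (SD 0.156, n = 8) and -2.43 to 0.24 in aged animals (SD 0.654, n = 16), with 4 aged animals below and 9 above the young range. The SDs were 0.104 and 0.501 for probe b and 0.269 and 0.507 for probe a, and the difference in spread was not tested. For probe c in hippocampus, the aged mean was -0.91 in the first scan batch and -1.63 in the later scans, against -1.31 and -1.38 in young animals. The aged spread thus includes a difference between scan batches. In cortex the young and aged SDs were 0.583 and 0.678 for probe a, 0.325 and 0.391 for probe b and 0.488 and 0.398 for probe c.

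Sox11 differed with age by -0.36 in hippocampus (-0.86 to 0.13) and by -0.31 in cortex (-0.76 to 0.12). In hippocampus 10 of 16 aged animals lay below the lowest young one, but 7 aged animals were not well above background. AU_iTBS 4, at -0.33, was the highest of all. Nes differed by -0.05 in hippocampus (-0.27 to 0.16) and by 0.31 in cortex (-0.02 to 0.64), and Igfbpl1 by -0.07 (-0.88 to 0.73) and 0.24 (-0.21 to 0.69). The age differences of the 2 regions were compared directly within animals, and 0 of 11 probes were called, with a smallest adjusted p of 0.302 and 2 unadjusted p under 0.05 (limma, 0.0237% of all probes called). For Sox4 probe a, the difference between the regions in the age effect was 0.32 (0.06 to 0.59).

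**Figure D4:**
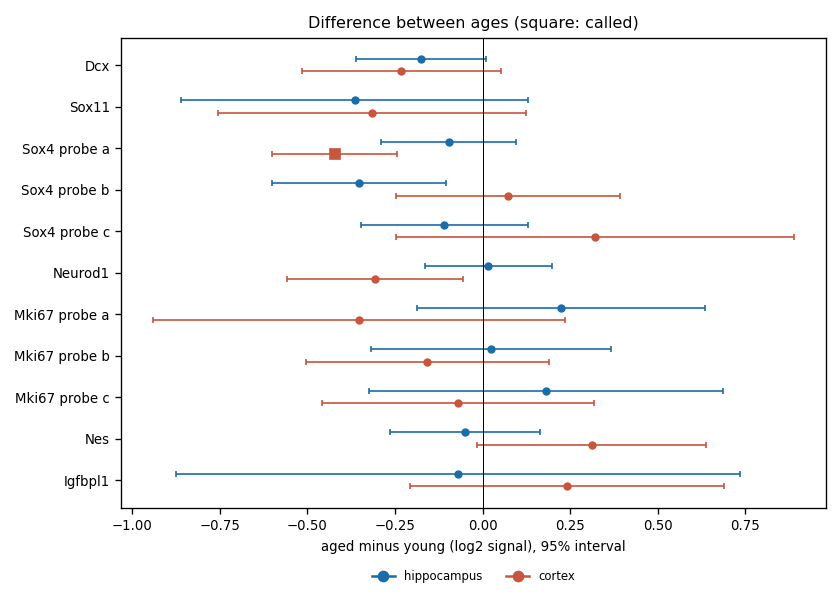
Fitted difference between aged and young animals (normalized log2 signal, x axis) with its 95% interval for each tested member probe (y axis) in hippocampus and cortex, a square marking the called probe. Sox4 probe a in cortex, at -0.42, is the called value, and the intervals of Dcx in both regions include 0.

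Among the related lists, few genes differed with age. In hippocampus, 1 of 14 neuroblast genes was called, Dpysl3 (-0.48, SE 0.0931, adjusted p = 0.0180, limma), a cytoskeletal protein of growing axons, and 0 of 15 progenitor and 0 of 34 cell cycle genes. List medians were -0.05, 0.02 and -0.09, beside -0.01 for all probes. Of 8 microglia genes 2 were higher in aged hippocampus, Cd68, a lysosomal protein (0.78, adjusted p = 0.000492, limma), and Itgam, an integrin (0.49, adjusted p = 0.0496, limma), whose other probe was not called. In cortex, 1 of 35 cell cycle genes was lower in aged animals, Ndc80 (-0.59, adjusted p = 0.0472, limma), a kinetochore protein. Beside Sox4 probe a, 0 of 14 neuroblast, 0 of 9 endothelial and 0 of 8 mural cell genes were called in cortex. The other lists had 0 called in either region.

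The AI and AU animals were compared within the aged groups, AI_Sham and AI_iTBS against AU_Sham and AU_iTBS. By limma 0 of 11 member probes were called in hippocampus, where 0.00308% of probes were, and 0 of 11 in cortex, where 0% were. The member probe ranked first in hippocampus was Mki67 probe b, whose difference of AI minus AU was 0.50 (0.10 to 0.90, adjusted p = 0.700, limma). It was -0.56, -0.72, -0.01 and 0.38 in AI_Sham, 0.39, -0.22 and -0.07 in AI_iTBS, -1.07, -1.12, -0.41 and 0.35 in AU_Sham, and -0.21, -0.96, -0.69, -0.62 and -0.71 in AU_iTBS. The groups overlapped, and Mki67 probes a and c differed by 0.27 (-0.21 to 0.75) and 0.29 (-0.30 to 0.88). Dcx was 2.38 ± 0.08 (SD, n = 4) in AU_Sham and 2.48 ± 0.22 (SD, n = 4) in AI_Sham hippocampus. In cortex the member probe ranked first was Sox4 probe b (-0.42, -0.79 to -0.05, adjusted p = 0.473, limma).

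The study's own question was the response to iTBS, which was compared with sham within young, AU, AI and all aged animals. The aged comparison reuses the AU and AI animals. In all 8 comparisons limma called 0 of 11 member probes. It called 0% of all probes except in AI cortex, where it called 0.00613%. By the selection rule of the study's methods, as rebuilt here from their text, 0 member probes were among the 59 selected in young, 12 in AU, 26 in AI and 14 in aged hippocampus, or among the 40, 24, 41 and 20 selected in cortex. That rule also asks for a mean z-score above 0, which 7 of the 12 member probes met in hippocampus and 5 in cortex, so the rest could not be selected whatever their difference. The rebuilt rule selected few of the 45598 probes on the array, so 0 of 12 says little about the members. Steps not stated in the methods may differ, so these counts do not stand for the study's own selection. At an unadjusted p under 0.05, 2 member probes were counted in young hippocampus, 1 in each of AI and aged hippocampus and in each of AU, AI and aged cortex, and 0 in AU hippocampus and young cortex.

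Dcx in hippocampus was 2.31, 2.70, 2.66 and 2.64 in Y_Sham and 3.07, 2.70, 2.80 and 2.51 in Y_iTBS. It was 2.44, 2.38, 2.44 and 2.27 in AU_Sham and 2.60, 2.53, 2.62, 2.44 and 2.53 in AU_iTBS, and 2.73, 2.28, 2.59 and 2.31 in AI_Sham and 3.01, 2.28 and 2.45 in AI_iTBS. The stimulated and sham animals overlapped in the young and AI groups, and in AU the lowest stimulated value equaled the highest sham value to 2 decimals. The differences of iTBS minus sham were 0.19 (-0.11 to 0.50) in young, 0.16 (-0.13 to 0.44) in AU and 0.10 (-0.22 to 0.43) in AI animals.

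In young hippocampus the 2 probes with an unadjusted p under 0.05 moved in opposite directions. Sox4 probe c was -1.89, -1.70, -1.71 and -1.89 in Y_Sham and -1.10, -1.30, -1.35 and -1.56 in Y_iTBS, a difference of 0.47 (0.08 to 0.86, adjusted p = 0.931, limma). Probes a and b did not share this direction. In AI hippocampus the same probe was -1.55, -1.18, -1.11 and -1.75 in sham and -2.14, -2.06 and -1.33 in stimulated animals, a difference of -0.45 (-0.86 to -0.03, adjusted p = 1.000, limma). The difference between the aged and young effects of probe c was -0.77 (adjusted p = 0.801, limma). Nes was 0.47, 0.47, 0.36 and -0.14 in Y_Sham and -0.01, -0.13, -0.10 and -0.08 in Y_iTBS, a difference of -0.37 (-0.72 to -0.02, adjusted p = 0.931, limma).

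In cortex, Neurod1 was 3.62, 3.81, 3.20 and 2.68 in AI_Sham and 3.99, 3.93 and 3.96 in AI_iTBS. The difference was 0.63 (0.19 to 1.07, adjusted p = 1.000, limma). The left-out cortex repeat of AI_iTBS 2 read 3.66, below AI_Sham 2 (3.81), and with it averaged in the difference was 0.59. Igfbpl1 differed by 0.83 in AU cortex (0.14 to 1.52, adjusted p = 0.578, limma) and by 0.71 in aged cortex (0.19 to 1.24, adjusted p = 1.000, limma). It was well above background in 0 of 4 AU_Sham and 4 of 5 AU_iTBS cortices, so the AU_Sham level is only a bound. AU_iTBS 4 read -0.98 on its first cortex array and -2.98 on the repeat, where it was not well above background, and with first arrays alone the AU difference was 1.03. Over 10 alternative settings, first arrays included, the AU difference ran from 0.19 to 1.24 and the aged one from 0.25 to 0.90. AU_Sham 1 and AU_iTBS 1, 2 and 3 were scanned on the later days. Mki67 probe c, the proliferation marker, was -1.57, -1.65, -1.96 and -0.73 in Y_Sham and -2.06, -1.55, -0.82 and -1.22 in Y_iTBS cortex, with full overlap. No neuroblast, progenitor or cell cycle gene of the lists was called for iTBS or for AI against AU in either region.

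**Figure D5:**
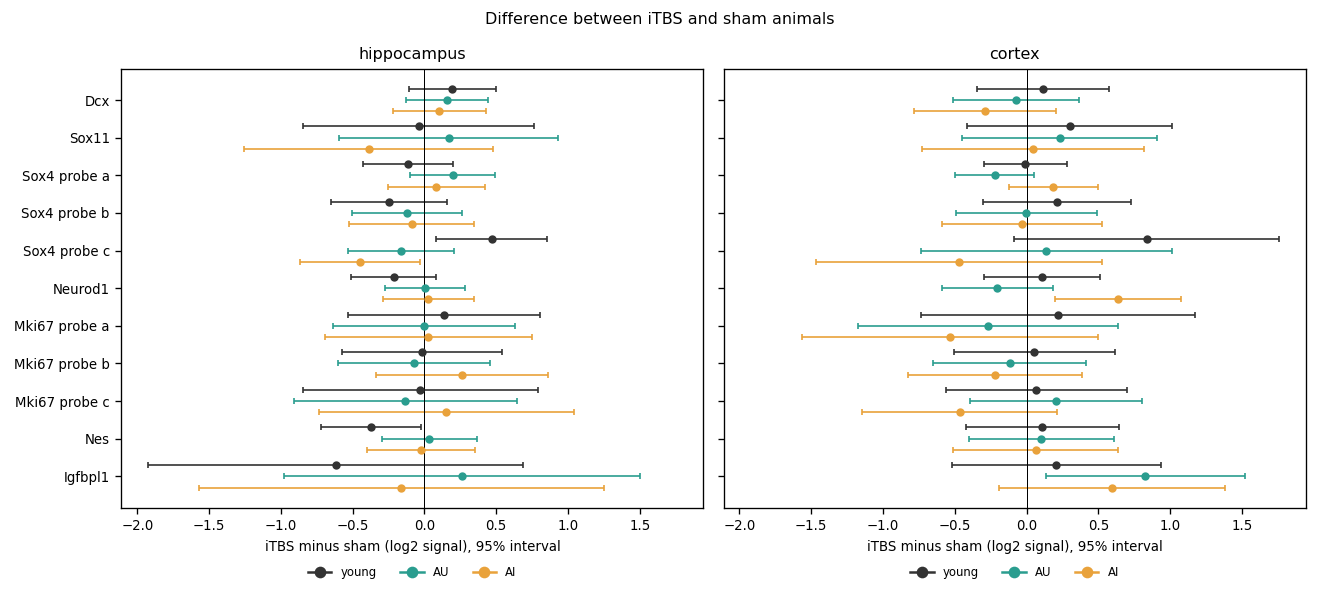
Fitted difference between iTBS and sham animals (normalized log2 signal, x axis) with its 95% interval for each tested member probe (y axis) in young, AU and AI animals of each region. No probe was called, and the Neurod1 value in AI cortex, 0.63, had an interval of 0.19 to 1.07.

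Finally, the members were compared with each other across the 16 aged hippocampi, with 1 probe per gene for the 6 genes measured in all of them, which gave 15 pairs. Dcx and Sox4 probe a were correlated (Pearson's r = 0.755, adjusted permutation p = 0.0160; Spearman's rho = 0.706, adjusted permutation p = 0.0457). Without the 2 animals farthest from the median, r was 0.605 (permutation p = 0.0200), and within the first scan batch it was 0.524 (n = 10, permutation p = 0.116), so the relation was not detectable there. Both genes were higher in the later scans of aged hippocampi. Means in the first and later scans were 2.40 and 2.65 for Dcx and 4.25 and 4.56 for Sox4 probe a. The pooled r thus includes a difference between scan batches, whose part in it was not tested. Scaled to the 75th percentile of each array, r was 0.595. Dcx and Igfbpl1 were not read as a pooled correlation, since Igfbpl1 fell into separate sets. The other 13 pairs had an adjusted permutation p for r of 0.0516 or more, among them Dcx with Mki67 probe a (r = 0.092) and Dcx with Neurod1 (r = 0.095).

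Over the 12 group means of the 2 regions, among 14070 probes of named genes well above background in all animals, the patterns most like Dcx by Pearson's r were those of Gucy1b1 (0.992), Ldlrad4 (0.988), Gabrb2 (0.984), Bmal1 (0.982) and Cask (0.981). Those most like Neurod1 were Bhlhe22 (0.991) and Nfib (0.986), and most like Igfbpl1 Ntf3 (0.990) and Cecr2 (0.989). For Nes they were Slc15a4 (0.962) and Greb1 (0.955), for Sox4 probe a Pmch (0.950) and Lxn (0.929), for Mki67 probe a Mbd6 (0.928) and Tmlhe (0.862), and for Sox11 Gnb4 (0.867) and Mov10 (0.854). These values are a description. The high r of the members called between the regions is over points that fall into 2 levels, 1 per region, and the points of a region share their normalization.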

How the data were processed

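Hippocampus and parietal cortex of 24 rats were measured on 56 one-color Agilent arrays. The deposited scanner files, made by the authors with Feature Extraction 12.0.3.1 per the labels, hold for 62976 features the processed intensity after background subtraction, medians of spot and background intensity, and spot flags. The authors also deposited a z-score table, whose score differed by less than 0.005 from a z-score of log2 processed signal and served as an alternative. Array number, not read depth, limits precision.

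Here, non-control spots without outlier flags were averaged to 45598 probes, named by transcript identifier through RefSeq (46.3% named). The deposited processed intensity was put on the log2 scale, converted to z-scores within each array, which the study also did, and rescaled by 4.08, the mean SD. Probes well above background in at least 3 of 24 animals were tested with limma 3.58.1 in R 4.3.3 (6 group means, eBayes, 18 residual degrees of freedom, two-sided, Benjamini-Hochberg over all tested probes, calls at adjusted p under 0.05). Regions were compared through within-animal differences. Correlations used two-sided tests of 100000 permutations in Python 3.11.15 with scipy 1.17.1. The fits were tested on simulated data.

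Named were all members, up to 4 called genes per list of smallest adjusted p, and the genes most like each member in group means (5 for Dcx, 2 for others). The gene of a list is represented by its brightest probe. Igfbpl1's companion genes were named outside this rule, after their values were seen. The members and lists were chosen with earlier results of these data known. Alternatives covered scaling, background, filter, repeats, batches, replicate blocks, single animals and the study's selection rule as rebuilt here. The normexp alternative used the median spot signal, as no mean signal was in the files. One array with contradicting labels and 1 cortex repeat stayed out. Labels give animals as separate samples.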

Additional observations from a re-analysis of the deposited data

Results flagged for a closer look

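Of 110 groups of 4 or 5 animals checked over the members, 5 held a sample far from the others, where chance gives about 5.5 (1 in 20). Dcx in hippocampus was 2.31 in Y_Sham 1 and 2.64 to 2.70 in the other Y_Sham animals. Nes in hippocampus was -0.54 in AU_iTBS 3 and 0.02 to 0.22 in the rest of AU_iTBS. Mki67 probe c in hippocampus was -2.20 in AU_iTBS 2 and -1.28 to -1.03 in the others of its group. Mki67 probe b in cortex was -0.0463 in AI_Sham 2, against -0.69 to -0.59. Sox11 in cortex was -1.38 in AU_Sham 1, against -2.20 to -2.11.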

How the results depend on the processing

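The number of member probes called between aged and young cortex went from 1 to 0 with the slide as a fixed block (an alternative chosen after seeing the data), with the replicate block and in sham animals alone, and was 0 to 1 when each animal was left out in turn. The cause was not tested. Of the 15 correlations among members in aged hippocampus, 2 passed by Pearson's r, Dcx with Sox4 probe a and Dcx with Igfbpl1. The Igfbpl1 pair did not pass by Spearman's rho (0.462, adjusted permutation p = 0.334) and was not read as a pooled correlation. By r, 1 passed after scaling to the 75th percentile, 0 within the largest scan batch and 0 without the 2 animals farthest from the median. Fewer animals enter the last pair of settings. Between regions the count of 4 ranged from 3 to 6. Nes was not called with the slide as a random block (0.34, adjusted p = 0.0552, limma), Igfbpl1 was not tested when all 24 animals had to be above background and differed by 1.47 after normexp, and Sox4 probe c was called with scan batch as a covariate (0.48, adjusted p = 0.00647, limma) and without Y_Sham 1 (0.31, adjusted p = 0.0348, limma). Of 175 refits of the 5 called values, 0 turned sign and 162 stayed called; of 5995 refits of the 171 values not called, 337 turned sign and 6 were called. The slide as a fixed block could not be fitted to the differences between regions.

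Over all probes, 166 were called for age in hippocampus, against 2145 with the slide as a fixed block, 274 with scan batch as a covariate and 1 in sham animals alone (92 to 258 leaving out 1 animal). In cortex 131 were called, against 86 with the stricter filter, 58 with the slide fixed, 70 with the replicate block and 34 in sham animals (60 to 293 leaving out 1 animal). Between regions 16690 were called, and 10392 with the slide as a random block. The share higher in aged was 82.5% in hippocampus, 66.1% with the slide as a random and 46.3% as a fixed block, and 58.8% in cortex, 74.6% after scaling to the 75th percentile.

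The replicate numbers of the labels only name animals. Deviations of animals with the same number correlated from -0.417 to 0.556 over 22 pairs, 7 of which were best with their own number, and in AI cortex each pair was over 0.1. The pairing by number, fitted as a replicate block, changed no member call but that of Sox4 probe a in cortex (-0.42, adjusted p = 0.0762, limma). With 3 to 5 animals a group, a probe that was not called may still differ by any amount within its interval.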

Other observations

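One array was put in no group, since its title gave a young sham and its description an aged iTBS hippocampus. It read 2.30 for Dcx, 4.25 for Sox4 probe a, 4.70 for Neurod1, 0.62 for Mki67 probe a, 0.12 for Nes and -0.26 for Igfbpl1. The left-out cortex repeat of AI_iTBS 2 read 3.75 for Sox4 probe a, where the first array read 4.53, 1.61 for Mki67 probe a against 0.72, -0.66 for Nes against 0.54, and 3.50 for Dcx against 3.49.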
